A study of Mus musculus with 35 samples.

Results

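Proteasome and immunoproteasome genes were followed across mouse marrow cells of the side population (SP) and CD8 T lymphocytes. The members were all genes whose symbol starts with Psm, 1 letter from a to g and a number, and that are the single gene assigned to a probe set of the array. This gave 58 probe sets of 46 genes, out of 8251 genes with such a probe set, and each gene was represented by the probe set with the highest mean level over the 35 arrays. Of the 46, 44 are proteasome subunits, chaperones or regulators, and these 44 carry all counts below. The other 2, Psmc3ip, a recombination factor, and Psme3ip1, a partner protein of Psme3, share the name pattern but are no subunits. The immunoproteasome genes Psmb8, Psmb9, Psmb10 and Psme1 were set apart from the other 40. The fifth gene of that set, Psme2, was represented only by probe sets assigned to several genes and has no value here.

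All cells came from marrow of C57Bl/6 CD45.1 mice aged 7 to 9 weeks, with 1 mouse per experiment. The ten-cell experiment had 3 samples each of LSP (named A, B and M), USP (N, O and Z) and CD8 cells (B, C and D), and every sample combined several amplifications of 10 cells and was read on 2 arrays. SP cells export a Hoechst dye, a property of blood stem cells, and the sort for Sca-1 without Gr-1 took LSP cells low and USP cells high in the SP tail, while T lymphocytes carried both CD3 and CD8. The single-cell experiment had 12 single SP cells (A to L), sorted from the tip of the tail, and 5 single-cell-equivalents (SCE, A to E). The SCE were 4 µl aliquots of 1 lysate of 40 such cells in 160 µl. Cells and SCE were each read on 1 array. By the authors' design the SCE should vary by technique only, and this takes in the draw of molecules into each aliquot, which was not measured apart. The labels do not say which ten-cell samples share a mouse, and both arrays of a sample share its amplified material, so p-values measure the spread between these samples.

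The proteasome is the protease that breaks down most ubiquitin-tagged proteins. Its core is a barrel of alpha subunits (Psma genes), which form the gate, and beta subunits (Psmb genes), of which Psmb5, Psmb6 and Psmb7 carry the constitutive cutting sites. A regulatory cap of ATPases (Psmc genes) and further subunits (Psmd genes) binds, unfolds and feeds in the substrate. In cells of the immune system, and in others after interferon gamma, Psmb8, Psmb9 and Psmb10 take the places of Psmb5, Psmb6 and Psmb7, and the resulting immunoproteasome, often with the activator made of Psme1 and Psme2, cuts peptides that suit MHC class I molecules. Psmb8 and Psmb9 lie on chromosome 17 in the MHC beside the peptide transporter genes Tap1 and Tap2, while Psmb10 lies on chromosome 8 and Psme1 on chromosome 14.

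Promoter windows of 300 bases, from 250 before to 50 after the start site, were taken from RefSeq (GRCm38.p6), in which 37 of the 44 genes had an entry. Searched on both strands, the core of the antioxidant response element, TGACNNNGC, to which Nfe2l1 and Nfe2l2 bind, was found in the windows of 6 of the 37 genes (16.2%), against 12.4% of 32851 windows in all. The gamma-activated site TTCNNNGAA was found in 3 of the 37 genes (8.11%), against 8.30% of all windows, and the core of the interferon-stimulated response element, GAAA, any 2 bases and GAAA, in 5 of the 37 (13.5%), against 3.44%. The 5 with an interferon-stimulated core were Psmb3, Psmd4, Psmd9, Psme1 and Psmg4, so Psme1 was the only immunoproteasome gene among them. The 37 genes had 39 windows, so shares of genes are set against shares of windows. All these are matches of letters and no measured binding. The windows below are those of the 2 genes with the lowest unadjusted p in SP against CD8 and of the 2 immunoproteasome genes detected in the most single cells, with matches in capitals. Psmb10 (chr8:105938343-105938642, minus strand) had no match, Psmb5 (chr14:54617946-54618245, minus strand) an antioxidant core, Psmb8 (chr17:34197945-34198244, plus strand) a gamma-activated site and Psme1 (chr14:55578244-55578543, plus strand) an interferon-stimulated core on the other strand.
Psmb10: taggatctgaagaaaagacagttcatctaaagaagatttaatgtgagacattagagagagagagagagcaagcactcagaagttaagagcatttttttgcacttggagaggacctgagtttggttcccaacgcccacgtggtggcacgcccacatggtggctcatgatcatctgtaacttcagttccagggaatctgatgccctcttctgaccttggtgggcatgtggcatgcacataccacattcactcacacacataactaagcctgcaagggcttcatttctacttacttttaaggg
Psmb5: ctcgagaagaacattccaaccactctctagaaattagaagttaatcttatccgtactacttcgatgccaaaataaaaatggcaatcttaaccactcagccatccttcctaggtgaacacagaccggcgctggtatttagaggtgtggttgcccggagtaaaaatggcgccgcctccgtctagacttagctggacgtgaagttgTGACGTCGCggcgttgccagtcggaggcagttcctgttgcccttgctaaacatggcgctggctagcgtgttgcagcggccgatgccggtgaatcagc
Psmb8: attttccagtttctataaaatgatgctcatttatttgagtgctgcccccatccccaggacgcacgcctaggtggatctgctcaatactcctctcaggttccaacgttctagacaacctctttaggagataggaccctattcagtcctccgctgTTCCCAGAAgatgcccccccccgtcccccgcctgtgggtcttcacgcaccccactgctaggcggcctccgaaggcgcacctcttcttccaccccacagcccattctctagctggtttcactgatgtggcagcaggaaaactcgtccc
Psme1: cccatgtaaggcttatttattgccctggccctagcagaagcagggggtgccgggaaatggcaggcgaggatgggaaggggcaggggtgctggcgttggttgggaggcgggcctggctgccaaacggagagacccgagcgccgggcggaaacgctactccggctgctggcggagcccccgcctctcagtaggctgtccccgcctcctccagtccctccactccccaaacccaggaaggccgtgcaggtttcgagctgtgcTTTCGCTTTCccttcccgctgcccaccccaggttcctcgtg

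Levels are log2 signal intensities, scaled by the authors to 1 trimmed mean. Of the 12 ten-cell SP arrays 9 held negative values and no CD8 array did, so ten-cell levels under log2 7 were set to that floor. On single-cell and SCE arrays no floor was set, and a gene was called detected at log2 9. The labelled cell types had their markers: 7 of 8 measured T lymphocyte markers were lower in SP, with summed levels of 56.0 to 58.2 in SP and 84.9 to 86.9 in CD8 samples, and 6 of 7 SP and stem cell markers were higher, with 69.7 to 75.6 in SP and 49.0 to 51.2 in CD8 samples (limma, adjusted p under 0.05). Of 9 granulocyte and monocyte markers, S100a8 was higher in SP, the summed levels were 69.4 to 85.8 in SP and 63.0 to 66.0 in CD8 samples, and Mpo and Elane were at the floor throughout. Of 2 natural killer markers, Klrd1 was lower in SP. No B lineage, erythroid, megakaryocyte or dendritic marker passed that test. Duplicate arrays differed in the 44 genes by a median of 0.0748 to 0.324 log2 units per sample, and by more than 1 log2 unit only in LSP sample B, in 3 genes.

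In SP against CD8 cells, no proteasome gene passed the test across all probe sets, while 5.83% of the 6823 probe sets tested did. Of the 44 genes, 41 exceeded the floor on 1 or more ten-cell arrays and were tested. Psmc4, Psmd2 and Psmg3 stayed at the floor on all 18. The mean level was lower in SP for 30 of the 41 (73.2%), against 41.4% of all probe sets tested. A probe set that passed the filter through 1 population alone can only be higher there, and more SP than CD8 arrays were read. The filter thus bears on this contrast and on the medians below, by an amount that was not tested. At an unadjusted p under 0.05, 6 of the 41 (14.6%) were lower in SP, against 9.32% of all, and none was higher, against 9.13% of all. The 6 were Psmb10, Psmb5, Psmd10, Psma7, Psmd9 and Psmd13. All 6 SP samples lay below all 3 CD8 samples for Psma6, Psma7, Psmb5 and Psmb10, which is 9.76% of the genes against a background of 5.77%. No gene had all SP samples above the CD8 samples, against a background of 5.53%. The median difference, SP minus CD8, was -0.65 over the 41 genes and 0.04 over all probe sets. It was -0.60 for the immunoproteasome genes and -0.65 for the other genes, and stayed below 0 for both under median centring and quantile normalization. With only the SP arrays that hold no negative value it was -0.64 and -0.96. Those were 1 array of LSP B and both arrays of USP Z. In these pools, fewer cells that express a gene and less RNA per cell cannot be told apart. Negative values were on SP arrays alone, so a difference between the arrays cannot be told apart from one between the cells either.

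Of the immunoproteasome genes, Psmb10 had the largest difference and also the largest of all 41 genes. Psmb10, which encodes the subunit that takes the place of Psmb7, had levels of 10.36, 7.002 and 8.15 in the LSP samples A, B and M, of 8.29, 7.36 and 7.40 in the USP samples N, O and Z, and of 11.02, 10.95 and 10.66 in the CD8 samples. The groups did not overlap, and among the SP samples LSP A stood nearest to CD8. The means were 8.09 ± 1.21 in SP (SD, n = 6) and 10.88 ± 0.19 in CD8 samples (SD, n = 3), a log2 difference of -2.78 (SE 0.68), which did not pass after adjustment (limma, unadjusted p 0.0048, adjusted p 0.0691). Over 20 alternatives the adjusted p ran between 0.0043, without LSP sample A, and 0.202, without CD8 sample B, and it passed in 6.

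Psmb8, the counterpart of Psmb5, had levels of 9.33, 9.28 and 9.77 in LSP, 9.17, 9.47 and 10.66 in USP and 9.78, 9.95 and 10.46 in CD8 samples. The groups overlapped, since USP sample Z lay above all CD8 samples, and the difference was -0.45 (SE 0.35, adjusted p 0.571). Psme1, a subunit of the activator ring, had 11.22, 11.43 and 11.81 in LSP, 11.47, 11.56 and 12.46 in USP and 12.08, 11.69 and 12.31 in CD8 samples, again with USP Z highest. Its difference was -0.37 (SE 0.27, adjusted p 0.550). The other Psme1 probe set was at the floor in all ten-cell samples.

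Psmb9, the counterpart of Psmb6, was above the floor in 1 SP and 1 CD8 sample only, at 9.44 in LSP A and at 10.46 in CD8 B. CD8 B was also the CD8 sample with the highest summed level of 6 B lineage markers, 53.5, against 45.9 in CD8 C and 42.0, the floor, in CD8 D, with Cd79a, Cd79b and Ms4a1 above the floor, and of 4 erythroid markers, 33.2, against 28.0 in both CD8 C and CD8 D. Its summed level of SP and stem cell markers was also the highest, 51.2 against 49.0, the floor, in both CD8 C and CD8 D. Abcg2, Gp9 and Ccr9 were above the floor in CD8 B alone among CD8 samples. For granulocyte and monocyte markers CD8 D was highest, with 66.0 against 64.6 in CD8 B. In LSP A all 6 B lineage markers were at the floor. The part of other cells in the Psmb9 level was not tested. The difference of -0.75 (SE 0.93, adjusted p 0.736) rests on these samples.

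**Figure D1:**
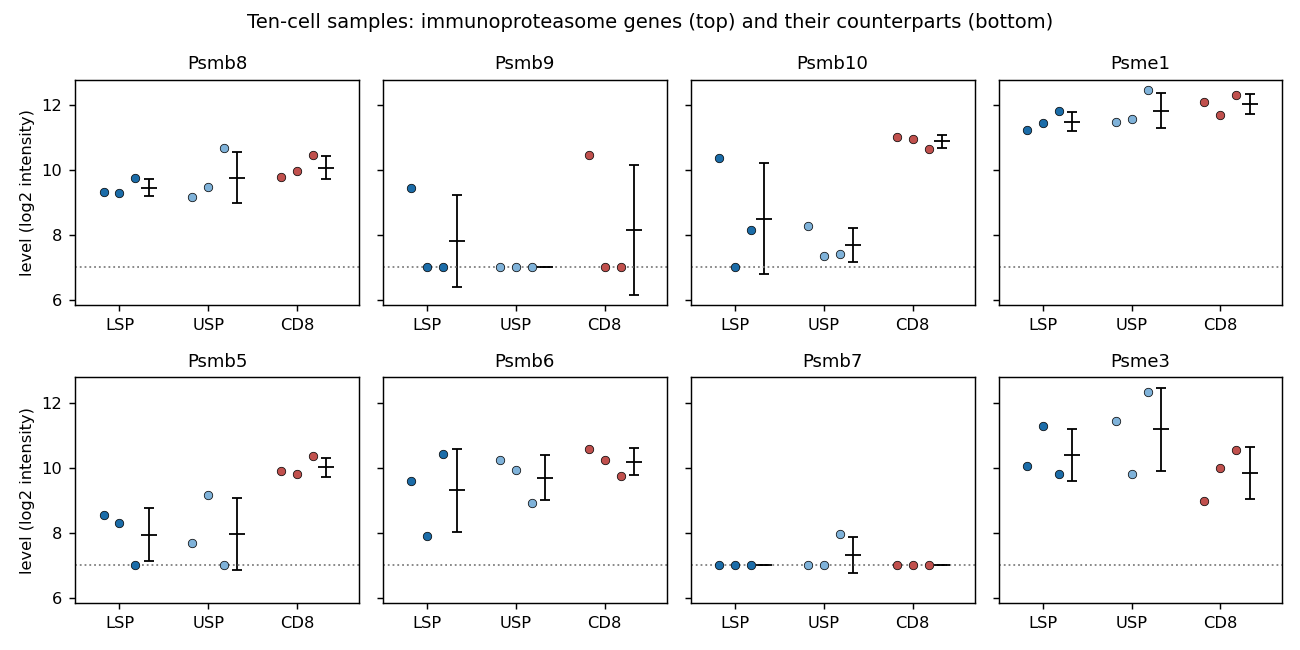
Levels (log2 intensity) of 4 immunoproteasome genes (top) and of the genes they replace or stand beside (bottom) in LSP, USP and CD8 ten-cell samples. Points are samples, bars the mean ± SD (n = 3 each), and the dotted line is the floor of 7. Psmb10 and Psmb5 show no overlap between SP and CD8 samples, and Psmb9 is off the floor in LSP A and CD8 B only.

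Of the constitutive counterparts, Psmb5 was the one whose groups did not overlap. Psmb5, the subunit with the chymotrypsin-like site, had 8.53, 8.29 and 7 in LSP, 7.68, 9.16 and 7 in USP and 9.90, 9.80 and 10.35 in CD8 samples. LSP M and USP Z were at the floor. The difference was -2.07 (SE 0.54, unadjusted p 0.0064, adjusted p 0.0821). Over 20 alternatives the adjusted p ran between 0.0197, with a floor of 8, and 0.253, without CD8 sample D, and it passed in 5. The probe set used carries a suffix for probes that match more than 1 transcript, and the other Psmb5 probe set was at the floor in all 9 samples and detected in no cell and no SCE. Psmb6, with the caspase-like site, had 9.60, 7.89 and 10.41 in LSP, 10.24, 9.94 and 8.91 in USP and 10.57, 10.22 and 9.74 in CD8 samples. These groups overlapped (difference -0.68, SE 0.58, adjusted p 0.615). Psmb7, with the trypsin-like site, was at the floor in every ten-cell sample except USP Z, at 7.96.

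Psme3, which forms an activator ring of its own in the nucleus, had 10.06, 11.29 and 9.79 in LSP, 11.43, 9.80 and 12.31 in USP and 8.98, 10.00 and 10.54 in CD8 samples. The samples overlapped, and the difference of 0.94 (SE 0.65, adjusted p 0.521) was the second highest of the 41. Psme4, a large activator that needs no ATP, was above the floor in LSP A and LSP M among SP samples and had a difference of 0.37 (SE 0.43).

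The alpha ring had 5 of 7 genes with a lower mean in SP and a median difference of -0.65. Psma7 had 10.52, 10.58 and 9.72 in LSP, 10.25, 9.39 and 8.57 in USP and 11.11, 10.65 and 10.88 in CD8 samples, and Psma6 had 9.83 to 11.48 in SP and 11.50 to 11.63 in CD8 samples. For both, every SP sample was below every CD8 sample, for Psma6 by less than any sample's median difference between duplicate arrays. The differences were -1.04 (SE 0.38, adjusted p 0.203) for Psma7 and -0.65 (SE 0.35, adjusted p 0.420) for Psma6. Psma1 had a difference of 0.62 (SE 0.33). Psma5 was at the floor in all CD8 samples, in LSP M and in USP Z, at 7.26 and 8.73 in LSP A and B and at 8.18 in both USP N and USP O (difference 0.72, SE 0.44, adjusted p 0.489). With samples of both groups at the floor this value is no bound.

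In the beta ring 6 of 7 genes had a lower mean in SP, with a median difference of -0.68. Beside the catalytic genes, the structural subunits Psmb1, Psmb2, Psmb3 and Psmb4 had differences between -1.27 (Psmb3, SE 0.86) and -0.25 (Psmb4, SE 0.26), with SE of 0.67 for Psmb1 and 1.00 for Psmb2. The 2 other probe sets of Psmb1 had differences of -0.36 and -0.18. The probe sets used for Psma3, Psmb4, Psmb7, Psmc3 and Psmd12 carry the suffix that marks probes shared by a family of related sequences, so their levels may include other transcripts.

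The ATPases, which unfold the substrate, went in both directions, with 3 of 5 tested genes lower in SP and a median of -0.04. Psmc1 was at the floor in LSP B, LSP M and USP N, at 10.59, 10.62 and 9.31 in LSP A, USP O and USP Z, and at 10.51, 10.95 and 10.82 in CD8 samples. The SP samples thus fell apart into samples at the floor and samples near the CD8 level, and the difference of -2.17 had an SE of 1.05 (adjusted p 0.351). Psmc6 had the highest difference of all 41, 1.30 (SE 0.68, adjusted p 0.398), with 8.30, 10.07 and 10.49 in LSP, 9.30, 10.06 and 10.46 in USP and 9.50, 8.81 and 7.13 in CD8 samples, which overlapped.

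Of the non-ATPase subunits of the cap, 8 of 10 tested had a lower mean in SP, and their median difference of -1.29 was the lowest of the groups. Psmd13, a subunit of the lid, had 7, 7 and 8.20 in LSP, 11.17, 7 and 8.25 in USP and 9.96, 10.35 and 10.60 in CD8 samples. USP N alone lay above the CD8 samples, and the other 5 SP samples lay below them. The difference was -2.20 (SE 0.86, adjusted p 0.231), and it was -2.79 without USP N (adjusted p 0.0200) and -1.75 without USP O. Over 20 alternatives the adjusted p ran between 0.0200 and 0.522 and passed in 3. Psmd14, the lid enzyme that removes ubiquitin, had -2.06 (SE 0.94), Psmd6 -1.80 (SE 0.85), Psmd11 -1.76 (SE 0.94), Psmd4, a ubiquitin receptor, -1.40 (SE 0.68), and Psmd8 -1.19 (SE 0.55), none past the test. Psmd7 and Psmd1 had 0.04 and 0.05. For Psmd11 the probe sets disagreed: a second one, above the floor in 8 of 9 samples like the first, had a difference of 2.36 (adjusted p 0.176).

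Of the assembly chaperones, Psmd10 had 7 to 7.97 in SP and 8.42, 7.61 and 9.85 in CD8 samples (difference -1.39, SE 0.49, adjusted p 0.178), and Psmd9 was at the floor in all SP samples and at 8.78, 7 and 7.91 in CD8 samples (difference -0.90, SE 0.35, adjusted p 0.221), again with both groups reaching the floor. Psmg4, a chaperone of the alpha ring, had -0.34 (SE 0.43), and Psmd5, Psmg1 and Psmg2 lay within 0.27 log2 units of 0. Psmc3ip and Psme3ip1, which are no subunits, each had a difference of 0.22.

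**Figure D2:**
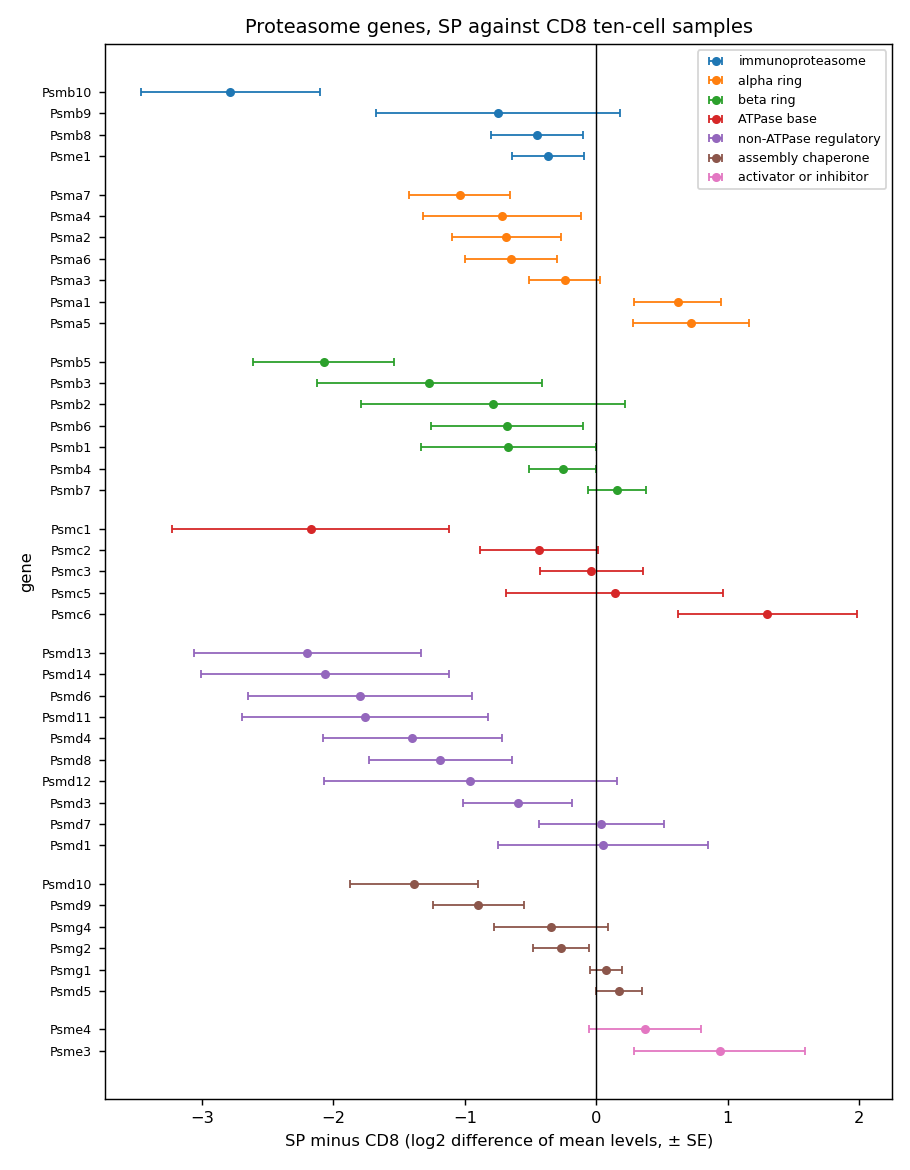
Difference of mean levels (log2, SP minus CD8) for the 41 proteasome genes above the floor, by role, with ± 1 SE of the limma fit. 30 of the 41 points lie below 0, and none passed the test after adjustment.

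The SD between samples was larger in SP than in CD8 cells, for these genes as for the rest, without a test. Over the 41 genes the median SD between samples was 0.82 in LSP, 0.68 in USP and 0.36 in CD8 samples, against 0.54, 0.50 and 0.25 over all probe sets tested. Over the 19 genes above the floor in all 9 samples it was 0.80, 0.64 and 0.35, against 0.61, 0.61 and 0.33 over the 1419 such probe sets. The number of genes above the floor was 27 to 36 of 44 in SP samples, with LSP A highest and LSP M lowest, and 35 to 36 in CD8 samples. The share of all probe sets above the floor was 29.1% to 34.0% in SP and 30.5% to 31.0% in CD8 samples, without a choice of probe sets by level.

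The genes around the proteasome were described from lists of neighbouring steps, to be read against the 5.83% of all probe sets that passed. Of 8 peptide loading genes tested, 1 was lower in SP and none higher: Tap1, 1 chain of the peptide transporter, had 10.04 ± 0.63 in SP (SD, n = 6) and 10.99 ± 0.11 in CD8 samples (SD, n = 3), a difference of -0.95 (SE 0.18, adjusted p 0.0312). Its neighbour in the MHC, Tap2, had -0.26 (adjusted p 0.520), Tapbp, which ties the transporter to class I molecules, -0.78 (adjusted p 0.160), B2m, their light chain, 0.26 (adjusted p 0.518), and the list's median was 0.24. Of 7 genes of interferon gamma signalling none passed the test, with a median of 0.01. Of 13 genes of proteasome assembly, shuttling and control 1 passed: Zfand5, a ubiquitin-binding protein that activates the proteasome, had 10.64 ± 0.53 in SP (SD, n = 6) and 7.78 ± 0.69 in CD8 samples (SD, n = 3), a difference of 2.86 (SE 0.42, adjusted p 0.00977), and was detected in all 12 single cells. Pomp, the maturation chaperone of the core, had -0.20 (SE 0.71).

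Between the lower and upper SP regions no proteasome gene passed the test, where 0.103% of all probe sets did. At an unadjusted p under 0.05 there were 2 of 41, Psmd8 and Psmg4 (4.88%), against 5.99% of all. Both had all LSP samples below all USP samples, against a background of 2.89%, and Psmd3 had all LSP samples above, against 3.09%. The mean was lower in LSP for 23 of the 41 (56.1%), against 43.4% of all, and the median difference, LSP minus USP, was -0.03.

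Psmd8, a lid subunit, had the lowest difference, -2.05 (SE 0.63, adjusted p 0.641), with 10.04, 7.52 and 8.80 in LSP and 10.90, 11.12 and 10.49 in USP samples. Psmd4 had 9.51, 7.72 and 8.08 in LSP and 8.31, 10.36 and 11.20 in USP samples (-1.52, SE 0.79), and Psmd13 had -1.41 (SE 1.00) with USP N apart at 11.17. Both overlapped. At the other end, Psmb1 had 9.96, 10.31 and 10.70 in LSP and 10.06, 9.68 and 7 in USP samples (1.41, SE 0.77), and Psmd11 had 9.38, 9.78 and 10.12 in LSP and 11.21, 7 and 7.51 in USP samples (1.19, SE 1.08). For Psmb1 the difference rests on USP Z, at the floor and the only SP sample with no negative value on either array. For Psmd11 it was 2.50 without USP N and 0.398 without USP O, and for Psmd13 it was -0.225 without USP N. Psme4 did not exceed the floor in USP and had 8.38, 7 and 9.11 in LSP samples (1.16, SE 0.49), with samples of both groups at the floor. Of the immunoproteasome genes, Psmb8 and Psme1 had -0.31 (SE 0.40) and -0.34 (SE 0.32), and Psmb9 and Psmb10 had 0.81 (SE 1.07) and 0.82 (SE 0.79). Both positive values rest on LSP A.

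A single SP cell had 10 to 20 of the 44 genes detected, with a median of 13.5, and an SCE had 12 to 24, with a median of 18. The ranges overlapped. As shares, these were 22.7% to 45.5% of the genes in single cells and 27.3% to 54.5% in SCE. Of all probe sets, 9.61% to 11.99% were detected in single cells and 10.9% to 12.6% in SCE. These shares are not on equal terms. In the 8 genes with more than 1 probe set, the one with the highest mean over all arrays, these included, was taken. The background takes in every probe set. No gene was detected in all 12 cells, and 7 were detected in all 5 SCE: Psme1, Psma1, Psma3, Psmb4, Psmb6, Psmc3 and Psmg4. The genes detected in the most single cells were Psmb8 in 11, Psma3 and Psmb4 in 10, and Psmd8 in 9. Detected in none were 9 genes, of which Psma5, Psmd3 and Psmd5 were detected in 1 SCE and Psmb7, Psmc4, Psmd2, Psmd10, Psmg1 and Psmg3 in none.

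**Figure D3:**
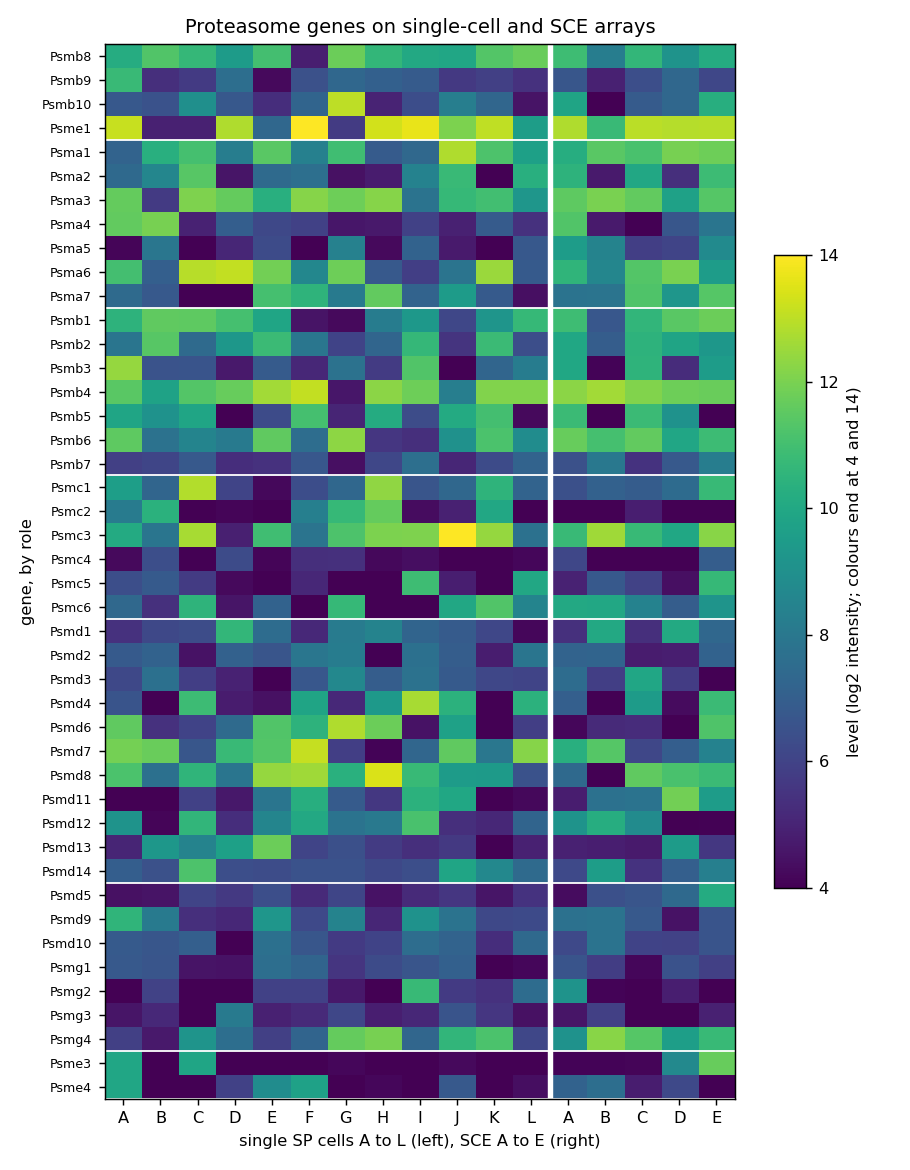
Level (log2 intensity, colour) of the 44 proteasome genes, ordered by role, in 12 single SP cells and 5 SCE. Most genes are bright in some cells and dark in others, 17 of the 44 being detected in 4 to 8 of the 12 cells.

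The 4 immunoproteasome genes were not all detected in any single cell. Of the 12 cells, 1 had 3 of them above the detection level, 7 had 2, and 4 had 1. Of the 5 SCE, 2 had 3, 2 had 2 and 1 had 1. Psmb8 had a level of 4.86 in cell F and of 9.51 to 11.76 in the other 11 cells, against 8.24 to 10.90 in SCE. Psme1 was spread widely, with 4.90, 4.92 and 5.75 in cells C, B and G, 7.32 and 9.58 in cells E and L and 12.04 to 14.72 in the other 7, against 12.82, 10.78, 12.97, 12.89 and 12.92 in SCE A to E. Psmb9 was detected in cell A alone, at 10.79, with the other cells at 4.25 to 7.63 and SCE at 4.94 to 7.33. Psmb10 was detected in cell G alone, at 13.02, with the other cells at 4.52 to 8.97, and in SCE A and E at 9.84 and 10.25, with the other SCE at 3.84 to 7.33.

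Of the counterparts, Psmb5 was detected in 7 cells, at 9.11 to 11.04, and stood at 2.23 to 6.33 in the other 5, and it split the SCE in the same way, with 10.83, 2.77, 10.83, 9.11 and 2.32 in SCE A to E. Psmb6 was detected in 5 of 12 cells and in 5 of 5 SCE. Psme3 was detected in cells A and C, at 9.93 and 9.89, and was at 4.26 or below in the other 10, and in SCE it was detected in E alone, at 11.66, while all 6 ten-cell SP samples had 9.79 or more.

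The mean level differed between single cells and SCE for none of the 35 genes detected in at least 1 cell, where 0.0474% of 4215 probe sets did so (limma, adjusted p under 0.05). All of these entered through single cells alone, whatever their SCE level. A high cell that lets a probe set in can also raise the mean and the spread of the cells. The filter thus bears on this comparison and on the spreads below, by an amount that was not tested. At an unadjusted p under 0.05 there was 1 (2.86%), Psmc2, against 4.79% of all. The median difference, single cells minus SCE, was -0.67 over the 35 genes and 0.02 over all probe sets.

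The spread between single cells was called larger than that between SCE for 1 of the 35 genes, Psmc2 (2.86%, against 0.546% of all). This was by a 1-sided permutation test with adjustment over all probe sets. It reassigned deviations from each group's own median, so it is not exact. Deviations from a median of 5 SCE are drawn smaller than those from a median of 12 cells. For every probe set this favours a larger spread in single cells. Without adjustment there were 7, Psma1, Psma6, Psmb4, Psmb6, Psmc2, Psmc6 and Psme1, which is 20% of the genes against 12.5% of all. Psmc2, an ATPase of the cap, had levels of 10.37, 10.71, 11.65 and 9.99 in cells B, G, H and K, of 8.16 and 8.31 in cells A and F and of 3.29 to 4.92 in the other 6, against 3.34, 3.34, 4.83, 3.94 and 3.75 in SCE A to E. It was thus detected in 4 of 12 cells and in none of the SCE, although all 6 ten-cell SP samples had 8.07 to 10.06. The spread of the SCE is therefore that of signals below the detection level, and the technical spread of a detected Psmc2 level was not measured. The mean absolute deviation from the group median was 2.98 log2 units in single cells and 0.421 in SCE (permutation p 0.000162, the smallest that 6188 assignments can give, adjusted p 0.0296). The call was lost without SCE D and without each single cell in turn, when no probe set of the whole table passed.

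The biological proportion is the share of the variance of single cells, around a mean shared with SCE, beyond that of SCE. A difference between the group means thus enters it. It had a median of 0.508 over the 35 genes and 0.355 over all probe sets. With a mean for each group the median over the genes was 0.527. The proportion was at least 0.5 for 18 of the 35 (51.4%), against 41.6% of all. Of these 18, Psmb9, Psmc2, Psmd9 and Psme4 were detected in no SCE. The proportion differed by role, as a description. The median was 0.859 for 5 ATPases, 0.716 for 4 immunoproteasome genes, 0.664 for 6 alpha subunits and 0.493 for 6 beta subunits. It was 0 for 9 non-ATPase subunits, of which Psmd7 alone reached 0.5. The immunoproteasome genes ranged widely, with 0.680 for Psmb8, 0.753 for Psmb9, 0 for Psmb10 and 0.953 for Psme1. The value for Psmb9 rests on cell A, the 1 array of cells and SCE where it was detected. Among genes detected in at least 4 cells the proportion was highest for Psmb4 (0.984), Psmc2 (0.983) and Psme1 (0.953). The other probe sets of Psmb4 and Psme1 were detected in no single cell and no SCE. Psmb4, a structural beta subunit, had 4.60 in cell G, 8.29 in cell J and 9.75 to 13.08 in the other 10, against 11.73 to 12.61 in SCE (adjusted p 0.393 by the permutation test). For Psme1 the adjusted p was 0.310.

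It was lowest, at 0, for Psmb5, Psmd6, Psmd8, Psmd12 and Psme3ip1. Psmd6 was detected in 6 of 12 cells, at 9.73 to 12.79, and in SCE E at 11.24, with the other SCE at 2.51 to 5.27. Psmd8 was at 6.51 to 13.43 in cells and at 3.07 to 11.55 in SCE, and Psmd12 at 4.15 to 11.12 in cells and at 4.01 to 10.23 in SCE. For Psmd8 and Psmd12 the aliquots of 1 lysate varied as widely as the cells did. For Psmd6 the mean absolute deviation from the group median was 2.88 in cells and 1.97 in SCE, of which SCE E alone was detected. Psme3ip1 was narrow in both, at 7.86 to 9.74 in cells and 7.29 to 8.65 in SCE.

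**Figure D4:**
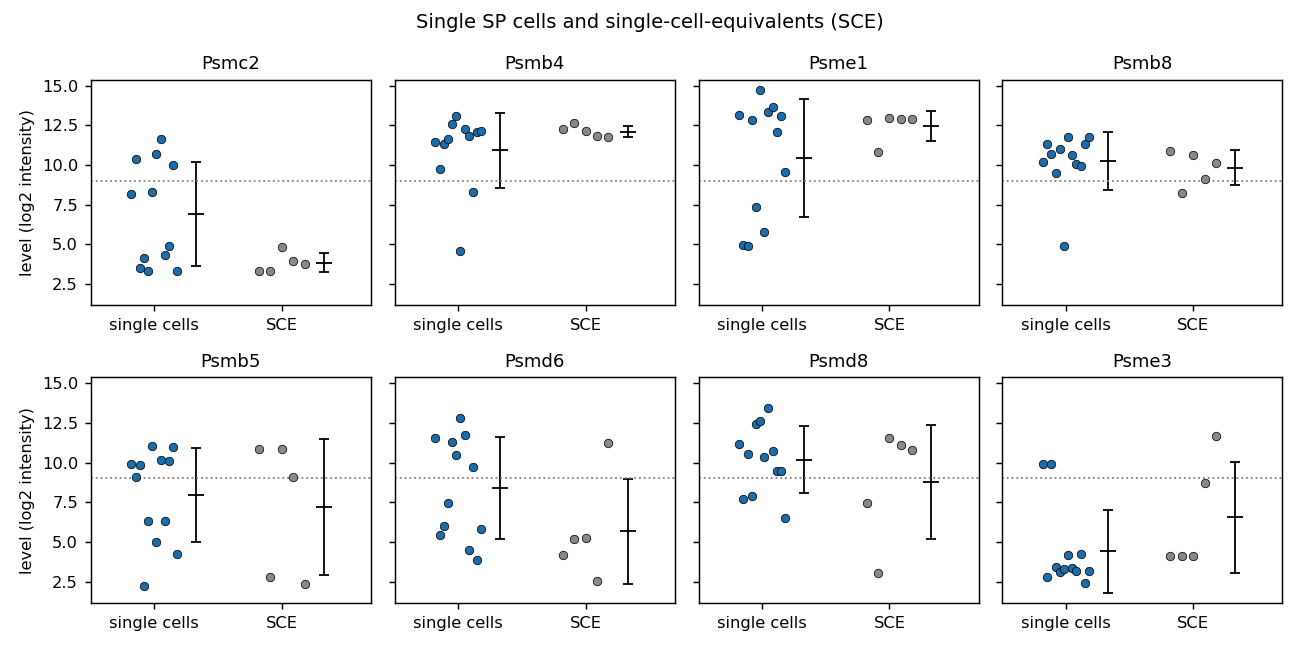
Levels (log2 intensity) of 8 proteasome genes in 12 single SP cells and 5 SCE, with points for arrays, bars for the mean ± SD and a dotted line at the detection level of 9. Psmc2 spreads between 3.29 and 11.65 in single cells while all SCE lie at 4.83 or below, and Psmb5 is split in cells and SCE alike.

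Across single cells the levels of different subunits were described by pairs: over 210 pairs of the 21 genes detected in at least 4 cells the median Pearson r across 12 cells was 0.04, and it was 0.00 over all pairs of the 1616 such probe sets. All genes of a cell share its amplification.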

How the data were processed

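Cells were sorted, their mRNA was amplified by global single-cell RT-PCR, and the labelled product was hybridised to MG-U74Av2 arrays. The authors deposited 1 table of linear signal intensities of 35 arrays, which share a mean of 249.9 to 250.0 once the outer 2% on either side are trimmed, with 24.6% to 32.1% negative values on 9 ten-cell SP arrays. The log2 RMA values that the methods describe were not analysed here. The members and lists were chosen with earlier results of these data known. Of 12488 probe sets, 66 controls were left out. Probe set symbols come from the annotation table of the array. Psme2 has no value because its probe sets are assigned to several genes. The array number limits the precision.

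Ten-cell levels were log2 intensities with a floor of 7 (an intensity of 128), with duplicate arrays averaged. A model in limma 3.58.1 (R 4.3.3) took in the 6823 probe sets that exceeded the floor on 1 or more arrays, with 1 mean for each of the 3 populations, SP being the mean of LSP and USP. Single-cell and SCE levels had no floor. They were fitted with limma for the 4215 probe sets with a log2 level of 9 or more in at least 1 single cell, whatever the SCE level. For each of these, technical and biological variance were estimated by maximum likelihood around a shared mean, and the biological proportion is biological over total variance. The spread around the group medians was compared by a 1-sided permutation test over all 6188 assignments of the deviations, which were not computed anew for each assignment. Benjamini-Hochberg adjustment ran over every probe set tested. Samples were not treated as paired, since the labels number only the 2 arrays of a sample, which share its material.

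Values are given for the immunoproteasome genes and their counterparts, genes called in a comparison, the 3 highest and 3 lowest differences in each ten-cell comparison, and the 3 highest and lowest biological proportions, with ties, among genes detected in at least 4 single cells. Other genes are given by counts and ranges, and those named with values beyond this rule were chosen after their values were seen. Alternatives changed the floor, the detection level, the filter, the scaling, the probe set, the model and the samples used. Python 3.11.15 with numpy 2.4.6, scipy 1.17.1, pandas 2.3.3 and matplotlib 3.10.9 was used, and each test was tested on simulated data.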

Additional observations from a re-analysis of the deposited data

Results flagged for a closer look

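Among 44 groups of 5 or 6 samples of the genes described by sample, 8 held 1 sample farther from the rest than Dixon's criterion allows. Chance gives about 1 in 20 in groups not chosen for their values, but many of these genes were named for large differences, and where all other samples lie at the floor any value above it is marked, as for Psmb7 and Psmb9, so the count has no chance rate to be read against. In the ten-cell SP samples, USP Z stood apart for Psmb1, at 7 against 9.68 to 10.70 in the other 5, and for Psmb7, at 7.96 with the others at the floor of 7. USP Z was the only SP sample with no negative value on either array, and the bearing of this was not tested. LSP A stood apart for Psmb9, at 9.44 with the others at the floor, and USP N for Psmd13, at 11.17 against 7 to 8.25. Among the SCE, B stood apart for Psmb1, at 6.72 against 10.58 to 11.73, and for Psme1, at 10.78 against 12.82 to 12.97. SCE B also had the fewest of the 44 genes detected, 12, against 17 to 24 in the other 4. SCE E stood apart for Psmc1, at 10.73 against 6.43 to 7.48, and SCE D for Psmd13, at 9.50 against 4.73 to 5.62. These 5 SCE are aliquots of 1 lysate.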

How the results depend on the processing

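For SP against CD8 the count of proteasome genes called, 0, became 2 (Psmb5 and Psmb10) when probe sets had to be above the floor in at least 3 samples. It was 2, with the same genes, at a floor of log2 8 and with SP arrays without negative values. Those arrays came from LSP B (1 array) and USP Z only. With single arrays and the sample as a random block, and with the array number as a replicate block, it was 2 (Psmb10 and Psmd13 in both). It was 1 with quantile normalization (Psmb5). It was 0 to 2 when 1 sample was left out, 4 by the methods' test without adjustment, 6 at an unadjusted limma p under 0.05, and 0 under the other alternatives. The share of all probe sets called moved too: it was 4.97% to 9.69% in the 6 settings of adjusted p with 2 genes called and 1.72% to 6.36% in the 10 with none, against 5.83%. At an unadjusted limma p under 0.05 the count was 2 for LSP against USP and 1 for single cells against SCE, and it was 0 under the other alternatives for both, the methods' test without adjustment for LSP against USP included. The array number as a block changed no count of these genes against the same fit of single arrays without it. Over all probe sets it called 639 in SP against CD8 and 27 in LSP against USP, against 661 and 31 in that fit. With duplicate arrays averaged, 398 and 7 were called. The array numbers mark duplicates of a sample and not pairs. The difference for Psmb9 reversed to 0.41 without CD8 sample B, the range with 1 sample left out being -1.325 to 0.41. The medians for the immunoproteasome genes (-0.93 to -0.47) and the other genes (-0.69 to -0.41) kept their sign when 1 sample was left out. For the spread, 0 to 2 genes were called when 1 array was left out, Psme1 joining Psmc2 without SCE B. The median biological proportion was 0.317 with detection at log2 8, 0.362 with a floor of 7 and 0.369 to 0.538 when 1 array was left out. Scaling the deviations for group size, chosen after seeing the data, kept the call of Psmc2. The cause of these changes was not tested.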
